A study of Mus musculus with 4 samples.

Results

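Messenger RNA of 9 iron-handling genes was followed in mouse bone marrow-derived macrophages, chosen by symbol from the 14432 genes of a single-cell count table. The 9 genes code for the 2 ferritin chains (Fth1, Ftl1), the ferritin receptor for autophagy (Ncoa4), the iron exporter ferroportin (Slc40a1), the transferrin receptor (Tfrc), the metal transporters NRAMP1 and DMT1 (Slc11a1, Slc11a2), and haem oxygenase and biliverdin reductase B (Hmox1, Blvrb). All 9 had a row in the table, and all 9 reached 20 CPM (counts per 1000000 counts of a library) in at least 1 library. The rule is a list of gene names, and it was drawn up with earlier results of these data known.

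The macrophages had been grown from marrow in the growth factor M-CSF at 50 ng/mL, and the title of the series concerns the calcium-permeable channel TRPV4 and NF-kB signalling in lung inflammation. Mice were 8 to 12 weeks old, and their genotype is given as Trpv4-null or as wild type, which the sample titles call C57BL/6J and the growth protocol C57BL/6. Cells of each genotype stayed untreated or received 100 ng/mL of lipopolysaccharide (LPS), a bacterial cell wall component, for 24 h. The design text counts 3 mice per genotype and 12 samples, whereas the cell annotation names 4 libraries, 1 for each combination of genotype and treatment, so each group was 1 library with an unknown mix of mice. Differences between groups therefore come without replicates and without a test.

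Iron that a macrophage takes up through the transferrin receptor, or frees from haem with haem oxygenase, enters a labile pool that is stored in ferritin or leaves through ferroportin. Ferritin is a shell of H chains (Fth1), which oxidise iron, and L chains (Ftl1), which help it to mineralise. When iron is scarce, iron regulatory proteins bind hairpins called iron-responsive elements (IREs), which blocks translation of mRNAs with the hairpin in the 5′ UTR and protects mRNAs with hairpins in the 3′ UTR from decay. Counts of mRNA therefore do not give the level of the proteins.

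Such hairpins were searched for in the annotated UTRs by pattern, and 5 of the 9 genes had a match. The search pattern was a 17-base stretch, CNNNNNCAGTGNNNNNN on the sense strand, with at least 4 of 5 possible base pairs between the 5 bases on either side of the loop. Each line below gives 30 bases 5′ to 3′ from the GRCm38 sequence with GENCODE M21 gene models, and capitals mark the 6-base loop.
Fth1 5′ UTR, chr19:9982732-9982761, plus strand: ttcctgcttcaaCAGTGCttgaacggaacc
Ftl1 5′ UTR, chr7:45459778-45459807, minus strand: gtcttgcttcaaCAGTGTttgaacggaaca
Slc40a1 5′ UTR, chr1:45925464-45925493, minus strand: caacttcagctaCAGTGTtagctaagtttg
Slc11a2 3′ UTR, chr15:100395152-100395181, minus strand: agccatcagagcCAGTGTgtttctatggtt
Tfrc 3′ UTR, chr16:32631219-32631248, plus strand: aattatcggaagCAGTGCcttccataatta
Tfrc 3′ UTR, chr16:32631598-32631627, plus strand: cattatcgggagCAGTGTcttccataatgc
Tfrc 3′ UTR, chr16:32631663-32631692, plus strand: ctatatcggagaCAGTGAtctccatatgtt
Tfrc 3′ UTR, chr16:32631710-32631739, plus strand: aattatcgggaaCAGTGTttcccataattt
All 5 pairs formed in every printed site but that of Slc11a2, which had 4. Among the 21745 protein-coding genes searched, 175 (0.805%) had a match in the 5′ UTR and 856 (3.94%) in the 3′ UTR. A match describes these letters and says nothing of binding in these cells.

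The genes lie apart in the genome. On GRCm38, Fth1 spans chr19:9980598-9985098 and Ftl1 chr7:45457944-45459884. Slc40a1 spans chr1:45908068-45926523, Tfrc chr16:32608920-32632794, Slc11a1 chr1:74375195-74386062 and Slc11a2 chr15:100387898-100425072. Hmox1 spans chr8:75093621-75100589, Blvrb chr7:27447978-27466144 and Ncoa4 chr14:32159865-32179855.

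Libraries held 5485 to 8288 cells and 43731003 to 144090985 unique molecular identifiers (UMIs, 1 per captured molecule, not scaled to gene length). LPS cells had 2.79 times the mean UMIs of untreated cells in wild type and 1.94 times in the library labelled Trpv4-null. More RNA per cell and deeper sequencing cannot be told apart, so the main values are shares of a library's UMIs, in CPM, with UMIs per cell beside them. All 14 macrophage markers (Lyz2, Adgre1, Csf1r and others) reached 20 CPM. Of 12 erythroid genes, 4 had a row and none reached 20 CPM, with a summed level of 1.2 to 2.0 CPM per library. Summed monocyte markers stood at 99.2 CPM untreated and 874 after LPS in wild type, and dendritic cell markers at 251 and 2640, carried mainly by Ms4a4c and Bst2, while Flt3, Zbtb46, Xcr1 and Clec9a stayed under 1 CPM in all libraries. The B cell list stood at 141 and 3.83 CPM in wild type and 142 and 2.70 in the labelled null, carried by Ighm. Mitochondrial UMIs made up 5.96% untreated and 3.20% after LPS in wild type, and 6.17% and 3.30% in the labelled null. The part of these differences in the LPS values below was not tested. Trpv4 itself was at 5.83 CPM before and 2.07 CPM after LPS in wild type, and at 8.60 and 9.62 CPM in the libraries labelled Trpv4-null. Its counts thus do not follow the label, which is why those libraries are called labelled Trpv4-null throughout, and which exons were deleted is not given in the sources used here. Of 27292 distinct barcodes, 74 (0.271%) occurred in more than 1 library. Intervals below are exact at 95% and cover counting error only.

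After LPS, the H chain of ferritin, the DMT1 transporter and haem oxygenase took a larger share of the UMIs in both genotypes, while that of ferroportin was far smaller. In wild type, 2 of the 9 genes were at least 2-fold higher after LPS (Fth1, Slc11a2), where 6.9% of 6332 compared genes were. Also in wild type, 2 of 9 were at least 2-fold lower (Slc40a1, Ncoa4), where 17.7% of compared genes were. In the libraries labelled Trpv4-null, 3 of 9 were at least 2-fold higher (Fth1, Hmox1, Slc11a2), beside 7.3% of 6340 genes, and 2 of 9 were at least 2-fold lower (Slc40a1, Tfrc), beside 21.3%. A gene was compared where the higher library had at least 20 CPM and 30 UMIs, and 2-fold is a size, not a test. Both genotypes' values are set side by side, and each has its own untreated library.

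**Figure D1:**
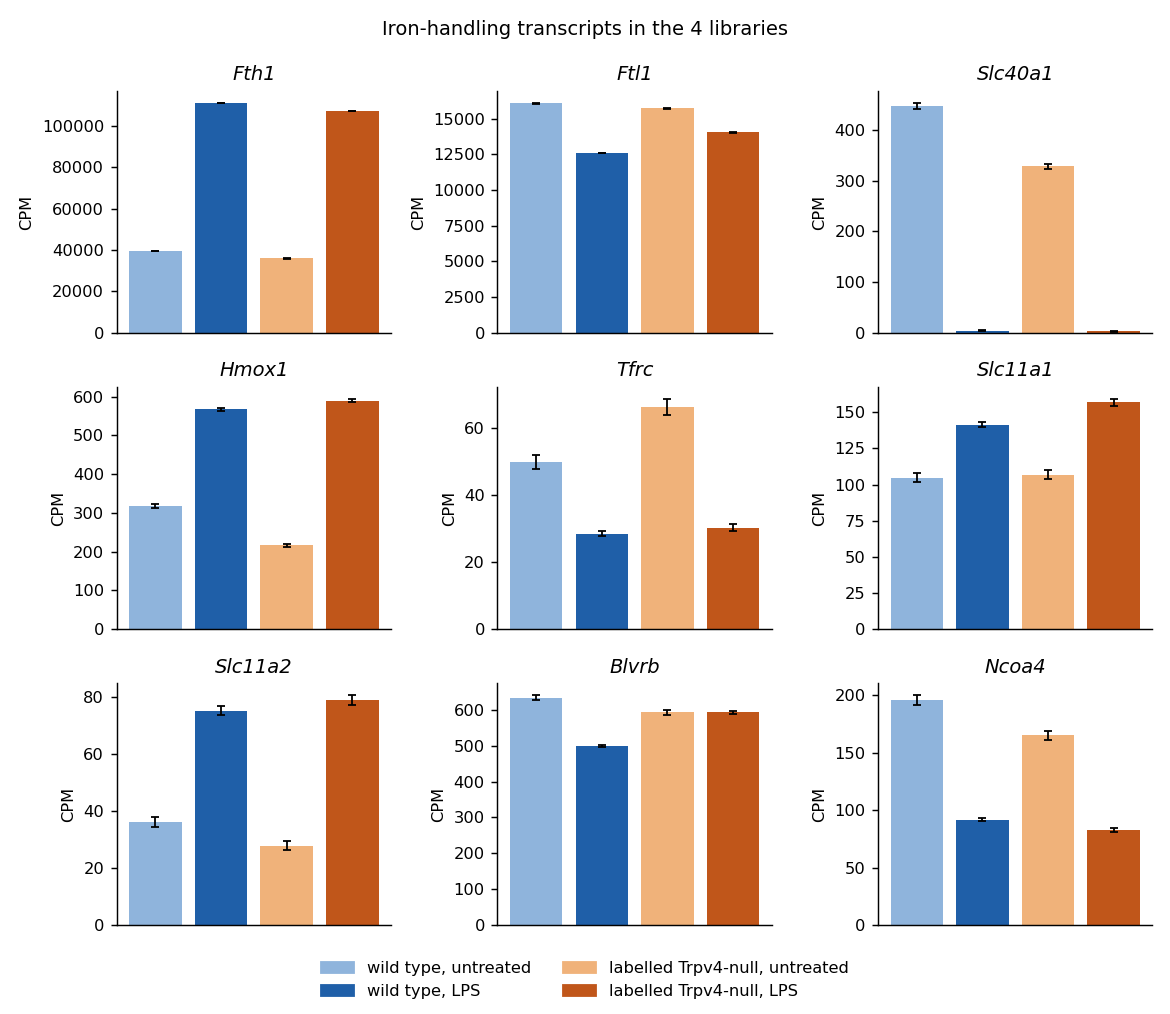
Level of each of the 9 genes in the 4 libraries, as CPM on a linear axis from 0 with its own range for each gene, with 1 bar per library and exact Poisson 95% intervals as error bars. Slc40a1 stands at 447 and 328 CPM untreated and under 5 CPM after LPS.

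Storage came first in abundance. Fth1 made up 3.94% of all UMIs in untreated wild-type cells, 11.1% in wild-type cells after LPS, 3.60% in untreated cells labelled Trpv4-null and 10.7% in such cells after LPS. It had more UMIs than any other gene in all 4 libraries. Both LPS libraries lay above both untreated ones, the wild-type ratio being 2.82 (2.81 to 2.82) and that of the labelled null 2.98 (2.97 to 2.98). In UMIs per cell the means were 245 untreated and 1930 after LPS in wild type, and 308 and 1778 in the labelled null.

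The shift in Fth1 was one of whole populations of cells. The median cell gave 3.74% of its UMIs to Fth1 in untreated wild type and 11.04% after LPS, and the corresponding medians in the labelled null were 3.35% and 10.6%. The middle 90% of cells spanned 1.80% to 6.79% untreated and 5.96% to 15.0% after LPS in wild type. In the labelled null the same span was 1.72% to 6.17% untreated and 6.11% to 14.7% after LPS. Treated and untreated spans overlapped only between 5.96% and 6.79% in wild type, and between 6.11% and 6.17% in the labelled null.

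**Figure D2:**
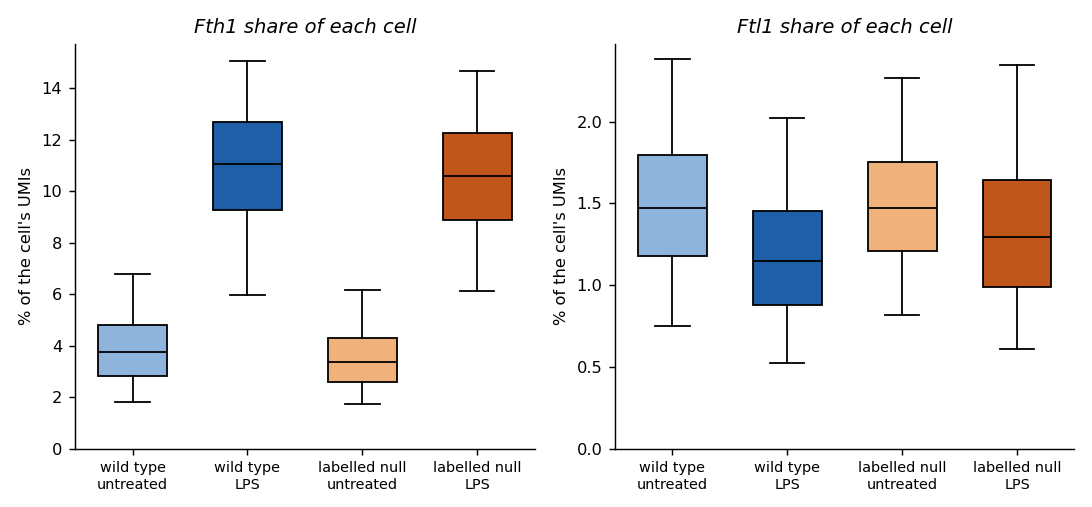
Share of each cell's UMIs that came from the ferritin genes, by library, in percent, with the median as a line, the middle 50% of cells as a box and the middle 90% as whiskers, a spread over cells of 1 library and not over replicates. The median for Fth1 is 3.74% and 3.35% in the untreated libraries and 11.04% and 10.6% after LPS.

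The L chain did not follow the H chain. Ftl1 made up 1.61% of UMIs in untreated wild type, 1.26% in wild type after LPS, 1.57% in the untreated labelled null and 1.41% in the labelled null after LPS. Both LPS shares were the lower ones, the log2 ratio being -0.35 for wild type and -0.16 for the labelled null. That direction belongs to the scale, since scaling by TMM factors gave 0.17 and 0.42 and median-of-ratios factors gave 0.18 and 0.45. In UMIs per cell Ftl1 was higher after LPS, at 219 against 100 in wild type and 233 against 135 in the labelled null. The processed pseudogene Ftl1-ps1, a near copy of Ftl1, stood at 153 to 228 CPM, and reads may be divided between the copies, so the level of Ftl1 is uncertain by an amount that was not tested.

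The balance of the 2 chains needs no library total, since both counts come from the same cells. There were 2.45 (2.44 to 2.46) Fth1 UMIs per Ftl1 UMI in untreated wild type and 8.82 (8.80 to 8.83) after LPS. The labelled null had 2.29 (2.28 to 2.29) untreated and 7.62 (7.61 to 7.63) after LPS. The ratio is in captured molecules, not scaled to length, and is read only between libraries.

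The same held cluster by cluster. The authors had named 9 clusters of cells, and 8 of them had at least 50 cells in each library (High_Btg1 was left out). Across those 8 clusters and both genotypes, Fth1 per Ftl1 ran from 1.66 to 2.71 in untreated cells and from 6.70 to 10.1 in LPS cells. Clusters of the same library are not replicates. The cluster named Macrophage had the highest wild-type values, 2.71 untreated and 10.1 after LPS.

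**Figure D3:**
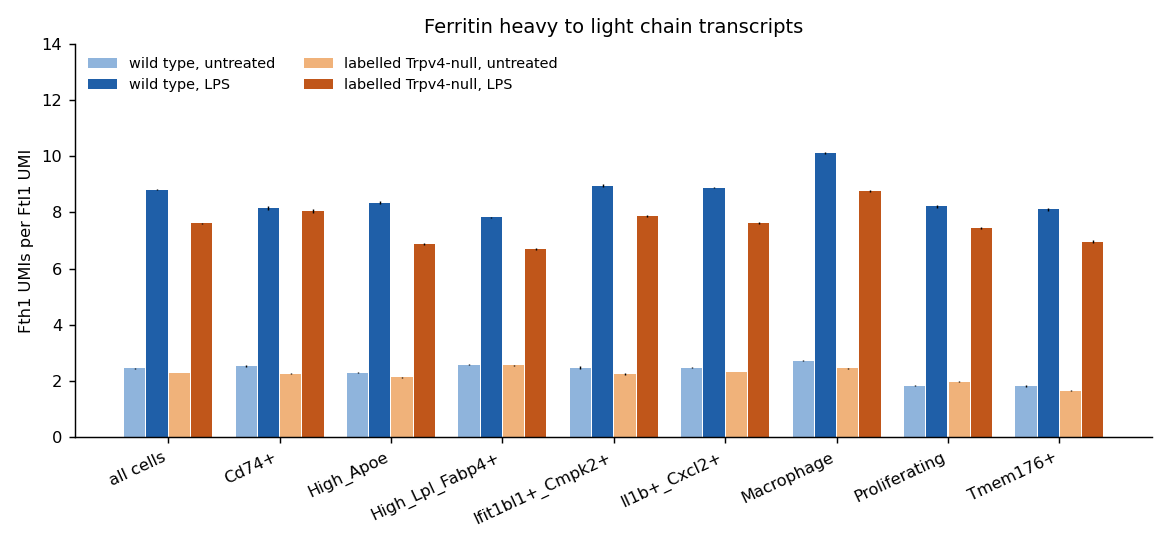
Fth1 UMIs per Ftl1 UMI in all cells and in each of 8 clusters, for the 4 libraries, with exact 95% intervals for counting error as error bars. Untreated values lie between 1.66 and 2.71 and LPS values between 6.70 and 10.1.

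Ncoa4, the receptor that carries ferritin to the lysosome for breakdown, stood at 196 CPM in untreated wild type, 92.0 after LPS, 165 in the untreated labelled null and 82.9 in the labelled null after LPS. Both LPS libraries were lower, at 0.469 (0.456 to 0.482) and 0.501 (0.486 to 0.517) of their untreated libraries. Ncoa4 UMIs per cell were not lower after LPS in wild type, at 1.22 untreated and 1.60 after LPS, and stood at 1.42 and 1.38 in the labelled null. The 2-fold mark in wild type was lost on other scales, with log2 ratios of -1.08 on the total, -0.97 with Fth1 left out of the total and -0.57 with TMM factors. The cluster Tmem176+ had the lowest Ncoa4 level after LPS, at 50.7 CPM against 209 untreated in wild type and 44.5 against 169 in the labelled null.

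Ferroportin, the only known exporter of iron from the cell, showed the largest difference of the 9 genes. Slc40a1 stood at 447 CPM (19545 UMIs) in untreated wild type, 4.64 CPM (668 UMIs) after LPS, 328 CPM (15399 UMIs) in the untreated labelled null and 2.85 CPM (311 UMIs) in the labelled null after LPS. In CPM, levels after LPS were 96.4-fold (89.2 to 104) lower in wild type and 115-fold (103 to 129) lower in the labelled null. UMIs of Slc40a1 per cell stood at 2.78 untreated and 0.0806 after LPS in wild type, a ratio of 0.0290. They stood at 2.81 and 0.0474 in the labelled null, a ratio of 0.0169, so the fold is smaller on that measure. The share of cells with at least 1 UMI was 74.8% untreated and 6.31% after LPS in wild type, and 74.1% and 3.61% in the labelled null. With each cell thinned to 3000 UMIs, those shares were 60.7% and 1.51%, and 52.6% and 0.773%, leaving out 666, 122, 209 and 93 shallower cells in that order of libraries. No cell type that lacks the gene was present to measure free RNA, so the low shares after LPS may include UMIs from outside the cell.

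Untreated levels of Slc40a1 differed between clusters, from 170 CPM in Proliferating to 592 CPM in High_Apoe in wild type, and from 164 to 399 CPM in the same clusters of the labelled null. After LPS the highest cluster was High_Lpl_Fabp4+ at 7.51 CPM in wild type and High_Apoe at 5.71 CPM in the labelled null. Every cluster was lower after LPS, by log2 ratios of -7.00 to -5.34 in wild type and -6.97 to -5.88 in the labelled null.

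Tfrc, the receptor for transferrin-bound iron, stood at 49.8 CPM in untreated wild type, 28.5 after LPS, 66.2 in the untreated labelled null and 30.2 in the labelled null after LPS. Both LPS libraries were the lower ones, at 0.571 (0.542 to 0.602) and 0.456 (0.434 to 0.479) of the untreated. In UMIs per cell Tfrc was higher after LPS in wild type, 0.495 against 0.310, and lower in the labelled null, 0.501 against 0.567. Its CPM was also lower in deeper cells of the same library: with each library cut into 3 classes of equal size by UMIs, untreated wild type ran from 76.3 CPM in the shallowest class to 44.7 in the deepest, and wild type after LPS from 41.9 to 22.7. Among cells with 8000 to 12000 UMIs alone, the log2 ratio was -0.19 in wild type and -0.25 in the labelled null, against -0.79 and -1.11 over all cells. Depth therefore moves with this difference, and its part in it was not tested beyond that window.

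Clusters also disagreed on Tfrc. In wild type, 7 of 8 clusters were lower after LPS and Tmem176+ was higher (log2 ratio 0.40), with the lowest ratio in High_Lpl_Fabp4+ (-1.34). In the labelled null the same Tmem176+ cluster was the 1 of 8 above 0 (0.08). The counting interval of the Tmem176+ ratio included 1 in both genotypes (0.944 to 1.95 and 0.730 to 1.58). That of High_Apoe and of Proliferating did so in wild type. High_Lpl_Fabp4+ had the highest untreated level, 81.2 CPM in wild type and 126 in the labelled null, and Tmem176+ the lowest, 16.2 and 19.2.

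NRAMP1 (Slc11a1), which pumps divalent metals out of the phagosome, stood at 105 CPM in untreated wild type, 142 after LPS, 107 in the untreated labelled null and 157 in the labelled null after LPS. The LPS ratio was 1.35 (1.31 to 1.39) in wild type and 1.47 (1.43 to 1.52) in the labelled null, above 1 in 8 of 8 clusters of each genotype. The related transporter DMT1 (Slc11a2), which moves ferrous iron out of endosomes, stood at 36.2 CPM, 75.2 CPM, 27.9 CPM and 79.0 CPM in the same order. Per cell, UMIs of Slc11a1 stood at 0.653 and 2.46 in wild type and 0.915 and 2.61 in the labelled null, and Slc11a2 at 0.225 and 1.31, and 0.239 and 1.31. The Slc11a2 ratio of CPM was 2.08 (1.97 to 2.19) in wild type and 2.83 (2.67 to 3.00) in the labelled null. All 8 clusters were higher after LPS in both genotypes, by log2 ratios of 0.59 to 1.37 and 1.21 to 1.65. DMT1 transcripts with and without the hairpin printed above cannot be separated in these counts.

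Haem oxygenase (Hmox1), which opens the haem ring and frees its iron, stood at 318 CPM in untreated wild type, 567 after LPS, 216 in the untreated labelled null and 590 in the labelled null after LPS. The LPS ratio was 1.79 (1.75 to 1.82) in wild type and 2.73 (2.67 to 2.79) in the labelled null. Hmox1 was higher after LPS in 8 of 8 clusters of each genotype, by log2 ratios of 0.49 to 1.13 in wild type and 1.24 to 1.69 in the labelled null. The clusters of a group come from 1 library and are not replicates. In UMIs per cell the 2 untreated libraries stood at 1.98 and 1.85 and the LPS libraries at 9.86 and 9.80.

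Blvrb, which reduces biliverdin, stood at 633 CPM in untreated wild type, 498 after LPS, 593 in the untreated labelled null and 593 in the labelled null after LPS. The log2 LPS ratio was -0.35 in wild type and within 0.01 of 0 in the labelled null, and TMM factors turned these to 0.18 and 0.58. Per cell, UMIs of Blvrb were higher after LPS, at 8.66 against 3.94 in wild type and 9.84 against 5.08 in the labelled null. Blvrb CPM was higher in deeper cells, from 466 in the shallowest class to 687 in the deepest of untreated wild type and from 311 to 580 after LPS. Among cells with 8000 to 12000 UMIs, the LPS log2 ratio was -1.15 in wild type and -0.71 in the labelled null, so at like depth Blvrb lay lower after LPS in both genotypes. That window takes the deeper cells of untreated libraries and the shallower cells of LPS libraries. Ftl1 did the same, at -0.79 and -0.43 in that window.

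**Figure D4:**
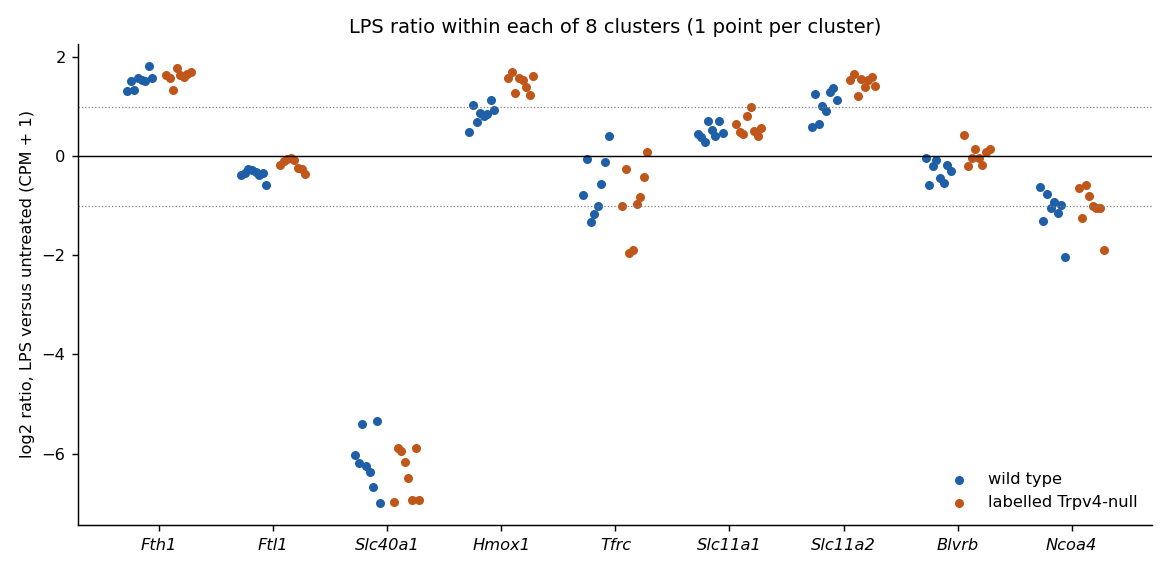
Log2 ratio of LPS to untreated for each gene within 8 clusters, 1 point per cluster, for wild type and the labelled null, with dotted lines at 2-fold. All Slc40a1 points lie at or below -5.34, all Fth1 points lie at or above 1.32, and Tfrc points lie on both sides of 0.

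The CPM scale depends on Fth1 itself, because 1 gene held 11.1% and 10.7% of UMIs in the LPS libraries. Leaving Fth1 out of the total added 0.11 to the log2 ratio of CPM with LPS in both genotypes, before the pseudocount of 1 CPM, and moved genotype ratios by -0.005 untreated and -0.006 after LPS. Slc40a1, close to the pseudocount after LPS, moved less, from -6.31 to -6.23 in wild type and from -6.41 to -6.34 in the labelled null. On the full total the median compared gene had a log2 LPS ratio of -0.39 for wild type and -0.42 for the labelled null, and without Fth1 these medians were -0.27 and -0.30. Among genes at least 2-fold apart, 28.0% and 25.6% were higher after LPS on the full total and 34.8% and 32.1% without Fth1. TMM factors gave medians of 0.18 and 0.22, with 68.4% and 67.9% higher, and median-of-ratios factors gave 0.19 and 0.25, with 68.8% and 69.5% higher.

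Counts of the 9 genes on the other scales were as follows. Without Fth1 in the total, 2 of 9 were at least 2-fold higher in wild type, beside 7.66% of 6504 genes, and 1 lower, beside 14.3%, since Ncoa4 did not reach 2-fold. In the labelled null 3 were higher, beside 8.34% of 6507 genes, and 2 lower, beside 17.6%. With TMM factors 3 were higher and 1 lower in wild type, beside 13.8% and 6.39% of 6131 genes, and 4 higher and 1 lower in the labelled null, beside 15.9% and 7.52% of 6200. Median-of-ratios factors gave the same counts of members, beside 14.1% and 6.38% of 6126 genes in wild type and 16.6% and 7.3% of 6202 in the labelled null.

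Positions among all compared genes were read on the full total. Fth1 lay at percentile 95.5 of the LPS log2 ratios of compared genes in wild type and 95.4 in the labelled null. Hmox1 lay at percentiles 91.9 and 95 and Slc11a2 at 93.3 and 95.1. Slc40a1 lay at percentiles 0.0316 and 0.0315, while Ftl1 lay at 52.1 and 62.9, near the middle. Fth1, Hmox1, Slc11a1 and Slc11a2 were above 0, and Slc40a1, Tfrc and Ncoa4 below 0, on all 4 of these scales in both genotypes. Among these 4 scales, Ftl1 and Blvrb were the genes whose sign depended on the scale. In UMIs per cell, Tfrc and Ncoa4 also turned in wild type, with LPS ratios of 1.60 and 1.31. In the labelled null they stayed below 1, at 0.884 and 0.972.

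**Figure D5:**
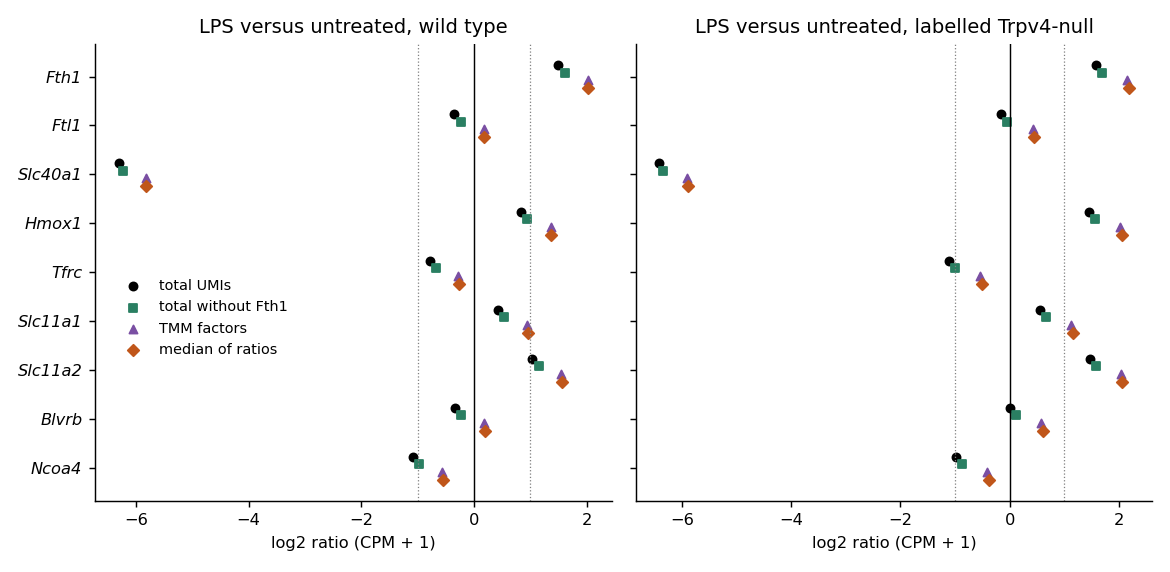
Log2 LPS ratio of each gene on 4 scales, the full UMI total, the total without Fth1, TMM factors and median-of-ratios factors, in wild type and the labelled null, with dotted lines at 2-fold. Ftl1 lies at -0.35 on the full total and 0.17 with TMM factors in wild type, while Slc40a1 stays at or below -5.82.

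Between the genotypes, as labelled, the differences were small beside those with LPS. Untreated, 0 of 9 genes were at least 2-fold apart, where 0.146% of 6156 compared genes were higher and 0.146% lower in the labelled null. After LPS, 0 of the 8 genes compared were 2-fold apart, where 0.134% of 5236 genes were higher and 0.0573% lower. Slc40a1 was not compared after LPS because it was under 20 CPM in both libraries.

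Within those small differences, Hmox1 was lower in the untreated labelled null, at 0.681 (0.664 to 0.699) of wild type, which put it at percentile 0.747 of compared genes. It was lower in 8 of 8 clusters, by log2 ratios of -0.96 to -0.23, and the ratio was -0.57 among cells with 8000 to 12000 UMIs, against -0.55 over all cells. In UMIs per cell the ratio was 0.938. After LPS the ratio of CPM was 1.04 (1.03 to 1.05), at percentile 75.9.

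Slc11a2 stood at 0.771 (0.716 to 0.830) of wild type in the untreated labelled null, and at 1.05 (1.02 to 1.08) after LPS. Untreated, its ratio was below 1 in 8 of 8 clusters, with counting intervals that included 1 in Ifit1bl1+_Cmpk2+, Proliferating and Tmem176+. In UMIs per cell the labelled null had 1.06 times the wild-type value. Slc40a1 stood at 0.733 (0.718 to 0.749) of wild type untreated. Its ratio was below 1 in 8 of 8 clusters, but level in Cd74+ at 0.999 (0.864 to 1.16) and close to level in Proliferating at 0.965 (0.871 to 1.07). In UMIs per cell the libraries were level, with a ratio of 1.01. The log2 ratio of Slc40a1 was -0.22 in the window of 8000 to 12000 UMIs, against -0.45 over all cells, and deeper cells of untreated wild type had less of it, 356 CPM in the deepest class and 625 in the shallowest. Untreated cells labelled Trpv4-null were deeper, with a median of 7893 UMIs against 5660.5, so depth moves with the genotype label here and its part was not tested further.

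Tfrc was higher in the untreated labelled null, with a ratio of 1.33 (1.26 to 1.40), at percentile 97.6. The ratio lay above 1 in 8 of 8 clusters. The counting interval included 1 in Cd74+, Ifit1bl1+_Cmpk2+, Il1b+_Cxcl2+, Proliferating and Tmem176+, and clusters of 1 library are not replicates. Its ratio of UMIs per cell was 1.83. Slc11a1 stood at 1.02 (0.978 to 1.06), with 4 of 8 clusters higher. The ratio of Tfrc after LPS was 1.06 (1.01 to 1.11), with 4 of 8 clusters higher, and that of Slc11a1 was 1.11 (1.09 to 1.13). After LPS, Blvrb stood at 1.19 (1.18 to 1.20) and Ftl1 at 1.12 (1.11 to 1.12) of wild type, both higher in 8 of 8 clusters. Fth1 ratios were 0.913 untreated and 0.965 after LPS, and 1.26 and 0.921 in UMIs per cell. Of 8 clusters, Fth1 was higher only in Proliferating untreated, at 1.08, and only in Cd74+ after LPS, at 1.04. Its after-LPS log2 ratio of -0.05 turned to 0.01 with TMM factors and 0.03 with median-of-ratios factors. Ncoa4 stood at 0.842 (0.817 to 0.869) untreated and 0.901 (0.877 to 0.925) after LPS, with 1 of 8 clusters higher each time. In UMIs per cell the Ncoa4 ratios were 1.16 and 0.860.

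In CPM, the log2 LPS ratio of the labelled null minus that of wild type was largest for Hmox1, at 0.61. Slc11a2 followed at 0.43 and Blvrb at 0.35. Tfrc had the lowest value, -0.32, and Ftl1 stood at 0.19, while the other 4 genes lay within 0.13 of 0. Over 6471 genes the median was -0.04 and the central 95% ran from -0.45 to 0.43. Hmox1 lay at percentile 98.5 and Slc11a2 at 97.5 of those genes. In UMIs per cell the Hmox1 LPS ratio was 4.99 in wild type and 5.29 in the labelled null. Slc11a2 and Blvrb were then lower in the labelled null, at 5.80 and 5.48, and 2.20 and 1.94, in that order. Mean UMIs per cell rose 2.79 and 1.94 times, so the differences in CPM depend on the library totals. With 1 library each, no test of these differences was possible.

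Likeness of pattern was measured as Pearson's r of log2(CPM + 1) over 32 sums, 8 clusters in each of 4 libraries, among 6361 genes with at least 20 CPM in a library. The sums share libraries and treatment, so a gene that separates LPS from untreated cells correlates with any other that does, and r is a description. Nearest to Fth1 were Msr1 (r = 0.989), a scavenger receptor, Acsl1 (0.987), which activates fatty acids, and Ptges (0.986), a prostaglandin E synthase. Nearest to Slc40a1 were Dbp (0.994), a clock-controlled transcription factor, Rnf150 (0.993) and Reps2 (0.993). Nearest to Hmox1 were Slc11a2 (0.960), itself one of the 9, Slc48a1 (0.952), which carries haem out of endosomes and lysosomes, and Pik3r5 (0.943). Slc48a1 (0.877), Fth1 (0.860) and Vav1 (0.857) were nearest to Slc11a1, and Rgl1 (0.971), Bcl2l1 (0.967) and Cyfip1 (0.967) to Slc11a2.

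Ncoa4 lay nearest to Wdr11 (0.943), Parvb (0.940) and Mtmr10 (0.939). Ftl1, Tfrc and Blvrb had looser neighbours than Ncoa4, as did Slc11a1 above. Among the closest were Lrrfip2 (0.870), Anxa5 (0.860) and Dctn2 (0.848) for Ftl1, Slc25a46 (0.817) and Uhmk1 (0.804) for Tfrc, and Ssr4 (0.719), Arpc3 (0.703) and Tor2a (0.690) for Blvrb. Between members, r was -0.95 for Slc40a1 with Fth1, 0.96 for Slc11a2 with Fth1 and -0.65 for Ftl1 with Fth1.

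Other genes of iron uptake went in both directions with LPS. On the uptake and endosomal release list, which includes 3 of the 9 genes, 8 were compared, of which 3 lay at least 2-fold higher and 3 at least 2-fold lower in wild type, with a median log2 ratio of -0.18 beside -0.39 for all compared genes. Of all compared genes, 6.9% were higher and 17.7% lower in wild type, and 7.3% and 21.3% in the labelled null, and no list here is set apart from those shares by a test. In the labelled null 2 were higher and 4 lower, with a median of -0.79 beside -0.42, over a different set of 8 genes, since Slc39a14 was under 20 CPM there and Mcoln1 was compared in its place. With median-of-ratios factors the medians were 0.35 and -0.20. Transferrin itself (Trf) stood at 331 CPM untreated and 19.1 after LPS in wild type, and at 368 and 14.5 in the labelled null. Lipocalin 2 (Lcn2), which binds bacterial iron carriers, stood at 12.3 and 201 CPM in wild type and at 17.5 and 197 in the labelled null. Lcn2 is also a neutrophil marker, and the summed level of 9 neutrophil markers, Lcn2 included, was 199 CPM untreated and 253 after LPS in wild type, and 354 and 239 in the labelled null. Lcn2 made up most of that sum after LPS, and the marker S100a9 went the other way, from 94.1 to 19.9 CPM in wild type and from 153 to 6.75 in the labelled null. Slc39a14, a zinc and iron importer, stood at 5.10 and 20.4 CPM in wild type and at 4.32 and 18.8 in the labelled null.

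On the storage list, which includes Fth1, Ftl1 and Ncoa4, 1 of 12 genes was at least 2-fold higher (Fth1) and 1 lower (Ncoa4) in wild type, with a median of -0.42. In the labelled null 1 was higher and 0 lower, with a median of -0.29. These medians turned to 0.11 and 0.31 with median-of-ratios factors. Atg7, an autophagy enzyme, had log2 ratios of -0.80 and -0.88. Of 6 genes of export and its control, Slc40a1 among them, 1 was higher and 3 lower in wild type (median -0.87), and 1 higher and 2 lower in the labelled null (median -0.94). With median-of-ratios factors the medians were -0.35 and -0.34, and Hfe (-0.69 and -0.89) and, in wild type, Bmpr2 (-0.49), named for this reason, no longer reached 2-fold lower. The higher one was ceruloplasmin (Cp), the ferroxidase that works beside ferroportin, at 5.90 CPM untreated and 99.1 after LPS in wild type and at 6.11 and 89.2 in the labelled null. Hfe, which takes part in hepcidin control, stood at 106 and 45.1 CPM in wild type and at 110 and 38.7 in the labelled null.

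Among 9 genes of iron sensing, 0 lay 2-fold or more above and 1 below untreated wild type (median -0.21), and none passed that size in the labelled null (median -0.39). Median-of-ratios factors turned these medians to 0.31 and 0.21. The 1 was Zfp36, which destabilises mRNAs, with log2 ratios of -1.44 and -0.45, the latter 0.16 with median-of-ratios factors. Aco1, which is iron regulatory protein 1 when it lacks its iron-sulphur cluster, had ratios of -0.63 and -0.76, and Hif1a, a transcription factor of the oxygen response, 0.69 and 0.16. Of 10 genes of haem import, export and breakdown, which include Hmox1 and Blvrb, 0 were higher and 2 lower in wild type (median -0.32), and 1 higher and 2 lower in the labelled null (median -0.11). The 2 were Flvcr1, a haem exporter, at -1.17 and -1.12, and Abcc1, an efflux pump, at -1.04 and -1.16. With median-of-ratios factors neither reached 2-fold, Flvcr1 standing at -0.65 and -0.53 and Abcc1 at -0.51 and -0.56, and the list medians were 0.20 and 0.48. Between genotypes, 0 of the compared genes of these 5 lists, those with at least 20 CPM in a library of the pair, were 2-fold apart, untreated or after LPS.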

How the data were processed

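Single-cell libraries of 4 groups were analysed from 2 deposited tables. Per the file headers and values, the authors deposited whole-number UMI counts per gene and cell, not normalized, and a cell annotation with library, cluster name and the fraction of mitochondrial UMIs. The submitters' processing notes list build mm10, R 4.2, Seurat 4 and Cell Ranger 3.1.0, with no role or order. Filters on cells, doublet handling and strand use were not given in the sources used here. The 27366 cells had 1003 to 39987 UMIs and at most 9.998% mitochondrial UMIs, and all were kept.

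Counts were summed per library (median 5660.5 to 16673.5 UMIs per cell) and, separately, per cluster and library, and scaled to CPM. Ratios are log2 of CPM plus 1, which understates low genes. CPM intervals are exact Poisson, ratio intervals exact conditional, shares of cells exact Clopper-Pearson. There is 1 library per group, so no p-value was computed. Beside the 9 members, up to 3 genes per iron list were named by the size of their wild-type LPS ratio, and the 3 nearest genes of each member, leaving out bare model numbers, and a few of these are not reported here. Members and lists were chosen with earlier results of these data known. Alternatives were 13 planned settings and 1 added after seeing the data, cells with 8000 to 12000 UMIs. Hairpins came from GENCODE M21 UTRs on GRCm38, in 44985 transcripts. Tools were R 4.3.3 with edgeR 4.0.16 (TMM factors only), matplotlib 3.10.9, pandas 2.3.3, scipy 1.17.1, numpy 2.4.6 and Python 3.11.15, and the ratio step was tested on simulated data.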

Additional observations from a re-analysis of the deposited data

Results flagged for a closer look

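For 4 genes the log2 genotype ratio of CPM had opposite signs untreated and after LPS. Each value had 1 library behind it, and the difference between the signs was not tested. The log2 ratio of the labelled null to wild type was -0.55 untreated and 0.06 after LPS for Hmox1, and -0.36 and 0.07 for Slc11a2. It was -0.10 and 0.25 for Blvrb, and -0.033 and 0.16 for Ftl1. The after-LPS sign of Slc11a2 turned to -0.006 among cells with 8000 to 12000 UMIs.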

How the results depend on the processing

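Counts of members at least 2-fold apart were recomputed under 14 alternatives, and 101 of 112 kept within 1.5 times of the main count. These include the genotype counts, which were 0 under every setting and could hardly move. A change from 2 to 3 members also passes as kept, as for higher members in wild type with TMM factors. Single values moved more: 233 log2 ratios moved by more than their counting interval and 258 did not, and with cells thinned to 3000 UMIs 31 shares of cells with a UMI moved and 5 did not. For higher members in wild type, 2 became 1 with mitochondrial-genome genes out of the total and with clusters weighted equally, where Slc11a2 lay at the 2-fold mark. For lower members in wild type, 2 became 1 without Fth1, without Fth1 and Ftl1, with TMM factors and with median-of-ratios factors, where Ncoa4 no longer reached 2-fold. For lower members in the labelled null, 2 became 1 with TMM factors, median-of-ratios factors, cells thinned to 3000 UMIs, clusters weighted equally and cells with 8000 to 12000 UMIs, where Tfrc no longer reached 2-fold. In that window 2 members were lower in wild type as before, but they were Slc40a1 and Blvrb in place of Slc40a1 and Ncoa4. Fth1 and Slc40a1 stayed past 2-fold after LPS under all 14 alternatives in both genotypes. The 3 nearest genes of each member changed completely, 0 of 3 shared, for all 9 members when only the 4 library sums were used. No paired analysis was possible because each group has 1 library, and leaving out a replicate leaves none. Slc40a1 after LPS rested on the fewest UMIs of any member, 668 in wild type and 311 in the labelled null.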

Other observations

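Other iron genes outside the report's lists also differed with LPS. Of 6 compared haem synthesis genes, 1 was at least 2-fold higher and 1 lower in both genotypes, with median log2 ratios of -0.19 and -0.43 beside -0.39 and -0.42 for all compared genes. Of all compared genes 6.9% were higher and 17.7% lower in wild type, and 7.3% and 21.3% in the labelled null. With median-of-ratios factors the haem synthesis medians turned to 0.32 and 0.15. Tspo, a mitochondrial outer membrane protein, stood at 404 CPM untreated and 1583 after LPS in wild type and at 440 and 1668 in the labelled null, and Fech, which inserts iron into the ring, had log2 ratios of -1.02 and -1.04, or -0.51 and -0.46 with median-of-ratios factors. Alas1, the first enzyme, had 0.81 and 0.83. Of 16 genes of mitochondrial iron and Fe-S clusters, 1 was higher (Bola3, 1.02 and 1.05) and 1 lower (Hscb, -1.46 and -1.31) in each genotype, with medians of 0.32 and 0.38. On the median-of-ratios scale those medians were 0.84 and 0.97, and Hscb stood at -0.94 and -0.72.

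Of 8 transcription factors of haem and iron genes, 0 were higher and 2 lower in each genotype, with medians of -0.51 and -0.53. Those were Bach1, a repressor of Hmox1, at 150 CPM untreated and 52.8 after LPS in wild type and at 152 and 50.5 in the labelled null, and Tfeb, a regulator of lysosomal genes, at -1.63 and -1.34. Nfe2l2, an activator of Hmox1, had -0.76 and -0.75. With median-of-ratios factors Bach1 stood at -0.97 in both genotypes and Tfeb at -1.11 and -0.75, and the list medians were 0.01 and 0.06. Of 8 compared genes of lipid peroxidation and ferroptosis, 0 were higher, and 3 were lower in wild type and 2 in the labelled null. The medians were -0.19 and -0.40. Listed genes under 20 CPM were not counted and went in both directions. Ptgs2 stood at 0.366 CPM untreated and 7.41 after LPS in wild type, and at 0.170 and 19.7 in the labelled null. Alox5 was lower after LPS, at 0.709 and 0.0902 CPM, and 1.19 and 0.0825. Sat1, which breaks down polyamines, had -1.76 and -1.49, and the glutathione synthesis genes Gclc and Gclm had -1.18 and -1.08, and -1.07 and -0.80. With median-of-ratios factors the medians turned to 0.32 and 0.19, and Sat1 stood at -1.23 and -0.88, Gclc at -0.67 and -0.51 and Gclm at -0.54 and -0.20. Of 8 genes known from iron-recycling red pulp macrophages, 7 had a row and 3 reached 20 CPM, namely Slc40a1, Hmox1 and Cd5l, while Spic stood at 8.04 to 10.4 CPM and Vcam1 at 0.128 to 3.89 CPM.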
